A study of Homo sapiens with 4 samples.

Results

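Chromatin signal was examined at 8 genes that write, read and erase histone acylation or set the supply of its acyl-CoA substrates: EP300, CREBBP, KAT6A, YEATS2, HDAC1, HDAC3, ACSS2 and CDYL. The genes were chosen by name and each was placed by its transcription start site on hg19. The 1 kb tiles within 6 kb of a start belonged to a gene, which gave 12 tiles per gene and 96 of the 2598309 covered tiles of the genome. The libraries came from K562, an established human leukaemia line with erythroid features, of wild-type genotype and grown in standard medium. Chromatin immunoprecipitation and sequencing (ChIP-seq) was done with an antibody against DPF2 (2 libraries) and with an antibody against crotonylated lysine 14 of histone H3, H3K14cr (2 libraries). DPF2 is a subunit of the BAF chromatin remodelling complexes and carries paired PHD fingers that recognise acylated H3K14. The design asks how DPF2 and modified H3K14 are distributed in these cells.

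Crotonylation is an acylation of lysine related to acetylation, with a longer and flat side chain. Acetyltransferases of the p300/CBP family can place it from crotonyl-CoA, proteins with a YEATS domain or a tandem PHD finger bind it, and class I histone deacetylases remove it. The amount of crotonyl-CoA is raised by ACSS2, which activates short-chain fatty acids, and lowered by CDYL, which hydrates crotonyl-CoA on chromatin. The data describe signal at the genes themselves and hold no measure of their expression or enzyme activity.

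The letters just upstream of the starts are shown for HDAC1 and EP300, whose starts were among the higher in fold, and for CDYL, whose first start stood lowest. CDYL has a further start deep inside the gene, shown because an enriched site lay at about the same distance. Each sequence is the 250 bases before a start listed by RefSeq on GRCh38.p14, read 5′ to 3′ on the strand of the gene, with CpG dinucleotides in capitals. All 4 lie on the plus strand. The HDAC1 stretch is chr1:32291833-32292082, that of EP300 is chr22:41092342-41092591, and those of the first and inner CDYL starts are chr6:4705888-4706137 and chr6:4776154-4776403.
HDAC1: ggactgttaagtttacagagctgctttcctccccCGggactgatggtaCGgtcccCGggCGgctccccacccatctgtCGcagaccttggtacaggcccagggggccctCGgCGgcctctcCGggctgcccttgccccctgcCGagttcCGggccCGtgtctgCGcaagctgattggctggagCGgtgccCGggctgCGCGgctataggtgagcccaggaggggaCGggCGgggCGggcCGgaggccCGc
EP300: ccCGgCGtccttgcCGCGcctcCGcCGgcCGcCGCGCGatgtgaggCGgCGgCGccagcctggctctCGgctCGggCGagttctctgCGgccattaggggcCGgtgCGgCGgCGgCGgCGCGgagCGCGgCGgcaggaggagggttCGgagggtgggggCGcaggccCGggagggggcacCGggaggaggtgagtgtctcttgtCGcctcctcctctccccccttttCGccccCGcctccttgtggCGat
CDYL first start: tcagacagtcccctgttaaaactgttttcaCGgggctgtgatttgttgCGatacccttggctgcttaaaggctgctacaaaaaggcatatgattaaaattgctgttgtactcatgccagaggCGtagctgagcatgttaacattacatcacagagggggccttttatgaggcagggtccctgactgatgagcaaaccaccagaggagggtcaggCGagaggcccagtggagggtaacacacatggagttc
CDYL inner start: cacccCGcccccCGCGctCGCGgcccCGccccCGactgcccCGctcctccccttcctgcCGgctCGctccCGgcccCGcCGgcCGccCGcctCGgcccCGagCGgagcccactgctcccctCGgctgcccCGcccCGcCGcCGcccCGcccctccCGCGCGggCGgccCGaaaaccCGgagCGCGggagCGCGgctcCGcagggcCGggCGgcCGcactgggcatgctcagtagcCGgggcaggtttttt

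The EP300 stretch holds 35 CpGs and that of HDAC1 holds 21, while the first CDYL start has 4 and the inner CDYL start has 39. Across all 35116 RefSeq promoter entries the median was 11 CpGs, with quartiles of 3 and 23. The GC box, searched as GGGCGG on both strands, occurs 8 times before the inner CDYL start, 3 times before HDAC1 and has no match before EP300 or the first CDYL start. This motif is present in 42.64% of all entries. Of the other genes, HDAC3 has 22 CpGs, CREBBP has 31 at its first start and 46 at a start 593 bp further in, and ACSS2 has 3 at its first start and 18 at a start 1.62 kb further in. Positions were not converted between builds. Which listed start of CREBBP or ACSS2 the measured hg19 start matches was therefore not determined, and the first need not be the one measured. In all, 7 of the 8 genes matched an entry, and the YEATS2 entry lies 12.44 kb inside the gene. Such matches describe letters and are not evidence of a bound factor.

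Before the results, the libraries were compared with each other. Those of DPF2 had totals of 7787444 and 13317496 reads, against totals of 10880366 and 17369133 reads in those of H3K14cr. Their chi-square per degree of freedom over the covered tiles was 0.981 between the DPF2 libraries and 0.990 between the H3K14cr libraries. Over the 96 tiles of the 8 genes it was 1.01 and 0.997. The libraries of an antibody thus differed by no more than sampling noise and each pair was treated as 1 sample (n = 1 per antibody). The labels do not say that they came from separate cultures. Differences between the antibodies therefore have no replicate check, and the p-values below measure technical spread between these preparations. No control library was analysed here. As a check of the line, the highest 1 Mb window of chromosome 22 reached 8.56 and 9.97 times the autosomal median in DPF2 and H3K14cr, and the lowest window of the chromosome 9 stretch around CDKN2A was at 0.0022 and 0.0010 times it. The amplified BCR-ABL1 segment and the loss of CDKN2A are known features of K562. The 1 Mb around the 8 genes lay at 1.54 to 3.73 times the median in DPF2 and at 1.76 to 4.33 times in H3K14cr, with YEATS2 lowest and HDAC1 highest in both. Levels in CPM are given for each gene, and genes are set against each other as folds over the local mean.

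Enrichment was examined first, to see where signal stood above its surroundings. Signal was concentrated at the start of 7 of the 8 genes with both antibodies, and CDYL was the exception. In the 2 kb centred on the start, the pooled reads stood at 4.03 times the local 20 kb mean at KAT6A, 3.38 at EP300, 3.04 at HDAC1, 2.87 at YEATS2, 2.40 at ACSS2, 2.18 at CREBBP, 2.14 at HDAC3 and 1.35 at CDYL in DPF2. The H3K14cr folds were 3.98 at KAT6A, 3.88 at EP300, 3.28 at HDAC1, 2.76 at HDAC3, 2.73 at YEATS2, 2.60 at ACSS2, 2.58 at CREBBP and 1.25 at CDYL. Neighbours in the DPF2 order had overlapping exact 95% binomial intervals throughout. In the H3K14cr order CDYL, at 0.922 to 1.65, lay below the interval of CREBBP, at 2.25 to 2.93, and the other neighbours overlapped. These intervals, like all those below, cover counting error only, since they come from pooled reads of 1 sample per antibody. They also count each read as its own molecule, since no molecular identifiers mark reads that come from the same molecule.

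**Figure D1:**
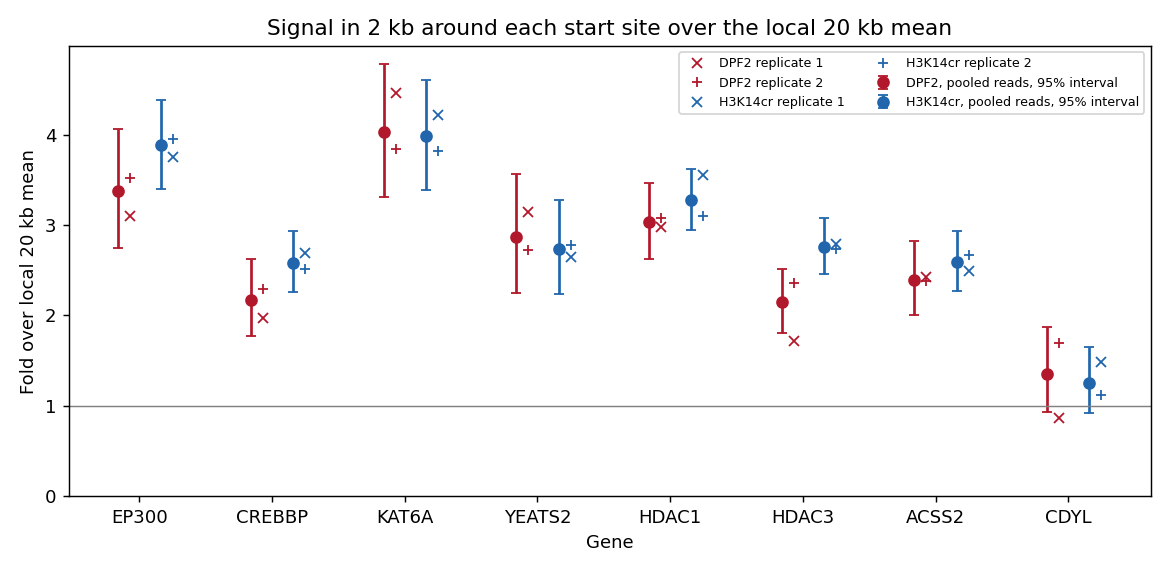
Fold of the 2 kb around each start over the mean of the 20 kb around it, for DPF2 (red, left of each pair) and H3K14cr (blue). Crosses and plus signs are the libraries, and dots with bars are pooled reads with exact 95% binomial intervals. The bars of 7 genes lie above 1 with both antibodies, and those of CDYL include 1, at 0.931 to 1.87 for DPF2 and 0.922 to 1.65 for H3K14cr.

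Enriched tiles were called with a one-sided Poisson test. Its background was the chromosome mean or the mean of the surrounding 20 kb, whichever was higher, and both libraries of an antibody had to reach 3-fold at a Benjamini-Hochberg adjusted p of 0.001 or less. DPF2 had an enriched tile within 6 kb of 3 of the 8 starts, those of KAT6A, YEATS2 and HDAC1, against 2.18% of all 12 kb windows of the genome. H3K14cr had an enriched tile at 4 starts, those of EP300, CREBBP, KAT6A and HDAC1, against 3.73% of windows. KAT6A and HDAC1 had an enriched tile for each antibody, as did 1.77% of windows. The tile that holds the start itself was enriched for DPF2 at the same 3 genes (0.215% of all tiles) and for H3K14cr at 3 genes, EP300, KAT6A and HDAC1 (0.416% of all tiles). KAT6A and HDAC1 had a start tile enriched for both antibodies, as had 0.16% of all tiles. These windows were taken across the genome and not around other gene starts, since no annotation of hg19 was used here.

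Among the genes without a call for 1 or both antibodies, some fell short in 1 library and others in both. At ACSS2 the start tile, chr20:33464001-33465000, had folds over background of 3.82 and 2.90 in DPF2 and 2.78 and 3.66 in H3K14cr, so 1 library of each antibody fell short of 3. At HDAC3 the folds in chr5:141016001-141017000 were 1.66 and 2.49 in DPF2 and 2.96 and 3.35 in H3K14cr. At EP300 DPF2 reached 2.23 and 3.51, against 4.32 and 5.30 in H3K14cr, with the chromosome 22 mean as the higher background. Over the surrounding 20 kb alone these folds were 3.87 and 5.87 in DPF2 and 6.42 and 7.35 in H3K14cr, and DPF2 still missed the call through replicate 1 (Poisson adjusted p = 0.0129). The YEATS2 start tile was the reverse case, with 6.42 and 4.76 in DPF2, and 2.83 and 4.22 in H3K14cr. CDYL stayed far below the threshold, at 1.09 and 1.82 in DPF2 and 1.60 and 1.48 in H3K14cr. With the libraries of an antibody summed before calling, 6 genes were called for DPF2 (5.09% of windows under that rule) and 7 for H3K14cr (5.63% of windows), which for H3K14cr was every gene but CDYL. Calls from a single library gave 5 genes for DPF2 without replicate 2 (3.09% of windows), and for H3K14cr 7 genes without replicate 1 (5.63% of windows) and 7 without replicate 2 (4.89% of windows). Start tiles enriched for H3K14cr numbered 6 without replicate 1 (0.651% of all tiles).

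**Figure D2:**
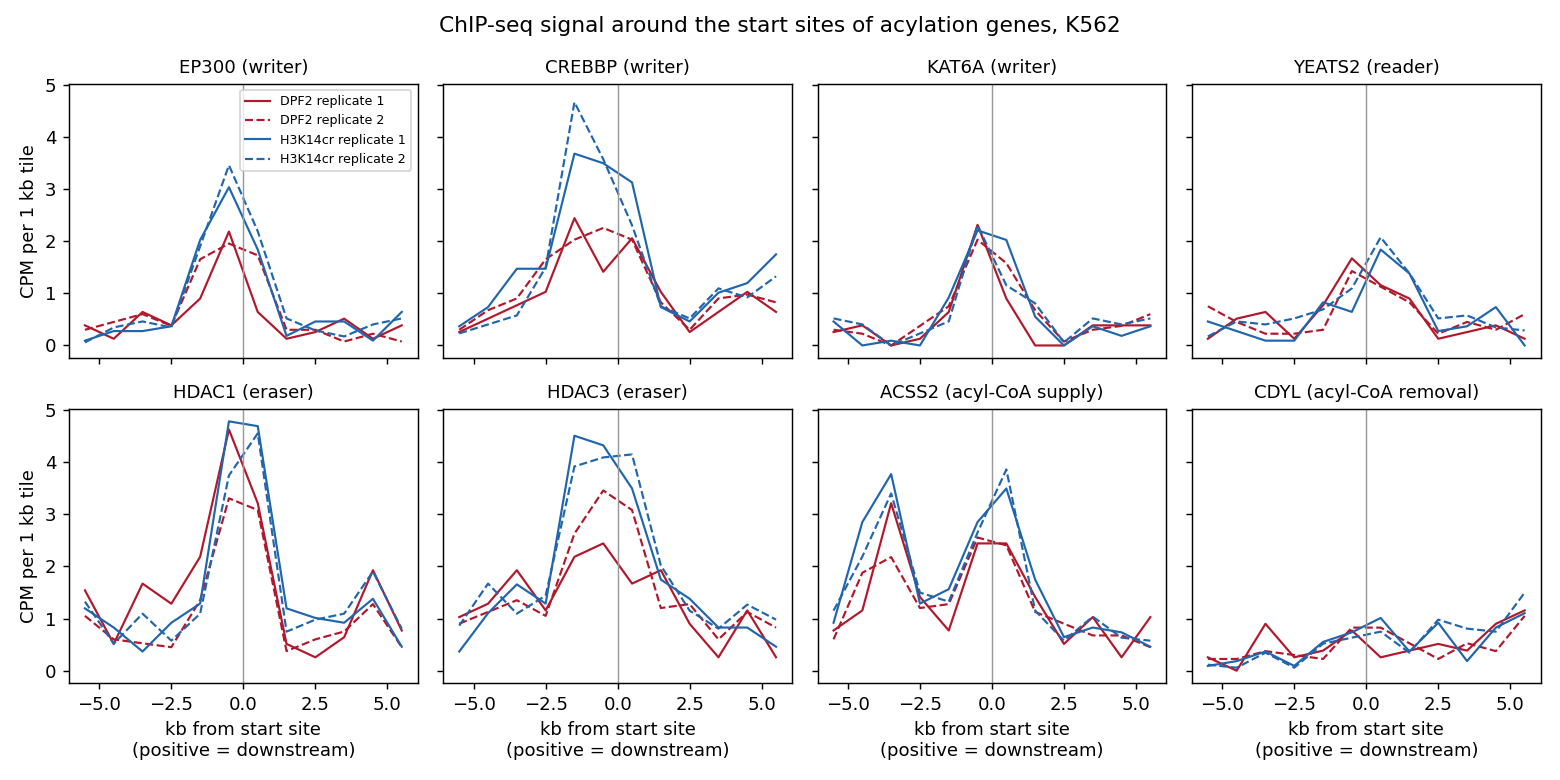
Signal in CPM (reads in a tile per 1000000 reads of the library) in 1 kb tiles centred from 5.5 kb upstream to 5.5 kb downstream of each start, turned to the strand of the gene, for the libraries of DPF2 (red) and H3K14cr (blue). Signal is highest beside the start in EP300, KAT6A, YEATS2 and HDAC1, 1 tile further upstream in CREBBP, at 2 places in ACSS2, and has no peak at the CDYL start.

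The writers come first. EP300 encodes p300, an acetyltransferase with broad acyl-CoA use and a main source of histone crotonylation in human cells. Its start, chr22:41488614, had 1.41 and 1.84 CPM per kb over 2 kb in the DPF2 libraries, against 2.44 and 2.82 in the H3K14cr libraries. The DPF2 libraries were both below the H3K14cr libraries, and the ratio of pooled reads was 0.629 (95% binomial interval 0.468 to 0.840). Across the genome, 107083 of the 451756 grid tiles of 2 kb that averaged 10 or more reads per library had this order. Signal leaned upstream with both antibodies: 67.2% of the reads within 3 kb of the start lay upstream in DPF2 and 66.7% in H3K14cr. The H3K14cr enrichment spanned a pair of tiles, chr22:41487001-41488000 and chr22:41488001-41489000. MIR1281 is the RefSeq neighbour within 6 kb.

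CREBBP encodes CBP, the paralogue of p300. Over the 2 kb at its start, chr16:3930121 on the minus strand, it had 1.73 and 2.14 CPM per kb in DPF2, against 3.31 and 2.94 in H3K14cr, again with no overlap between antibodies. The ratio was 0.646 (0.492 to 0.843). The highest tile of both antibodies lay 1 to 2 kb upstream of chr16:3930121, at 2.23 CPM in DPF2 and 4.17 CPM in H3K14cr. In that tile the ratio was 0.509 (0.354 to 0.720). RefSeq lists CREBBP starts 593 bp apart on GRCh38.p14. Which of them the hg19 position matches was not determined, so the tile may lie closer to an annotated start. The enriched H3K14cr tile, chr16:3931001-3932000, had 2.83 and 2.40 CPM in DPF2 and 4.50 and 5.70 CPM in H3K14cr. CREBBP also kept the most signal away from its start among the writers, since the 2 kb at the start held 30.4% of the reads of the 12 kb in DPF2 and 33.3% in H3K14cr.

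KAT6A encodes a MYST-family acetyltransferase that carries a tandem PHD finger of the same kind as DPF2. At its start, chr8:41909505, it had 1.61 and 1.80 CPM per kb in DPF2 and 2.11 and 1.73 in H3K14cr. The libraries of the antibodies overlapped, and the ratio was 0.922 (0.675 to 1.25). Signal was narrow: 51.4% of the reads of the 12 kb lay within 1 kb of the start in DPF2, the largest share of the 8 genes, and 51.5% in H3K14cr, next to the 51.9% of EP300. Its flanks from 6 to 16 kb were low, so that the start stood 6.24 times above them in DPF2 and 5.99 times in H3K14cr. KAT6A-AS1, an antisense transcript gene, is its RefSeq neighbour within 6 kb, and ChIP signal at the start cannot be told apart between them.

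YEATS2 is the reader of the list, a YEATS-domain subunit of the ATAC acetyltransferase complex that binds acetylated and crotonylated histone H3. Its start, chr3:183415606, had 1.41 and 1.28 CPM per kb in DPF2 and 1.24 and 1.58 in H3K14cr, with overlapping libraries and a ratio of 0.914 (0.639 to 1.30). The highest tiles of the antibodies lay on opposite sides of the start. DPF2 was highest in the 1 kb before it, at 1.55 CPM, and H3K14cr in the 1 kb after it, at 1.96 CPM. The ratio was 1.65 (0.951 to 2.88) before the start and 0.574 (0.340 to 0.941) after it, with intervals that just fail to overlap. These tiles were picked as the highest of each antibody, so the contrast is a description. Within 3 kb, 50.0% of DPF2 reads (39.4 to 60.6) lay upstream, against 34.8% of H3K14cr reads (27.5 to 42.6), and these intervals overlap.

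The erasers are class I histone deacetylases, which also remove crotonyl groups. HDAC1 is a catalytic subunit of the Sin3, NuRD and CoREST complexes. Its start, chr1:32757708, had 3.92 and 3.19 CPM per kb in DPF2 and 4.73 and 4.15 in H3K14cr. The DPF2 libraries were both below the H3K14cr libraries, and the ratio was 0.791 (0.640 to 0.975). The site was compact: a pair of tiles stood at 2 times the flanks or more with each antibody. Its start tile, chr1:32757001-32758000, had folds over background of 4.80 and 4.44 in DPF2 and 4.33 and 3.94 in H3K14cr. DPF2 peaked in the 1 kb before the start at 3.96 CPM and H3K14cr in the 1 kb after it at 4.62 CPM. Upstream reads made up 60.6% (53.8 to 67.2) in DPF2 and 48.0% (42.7 to 53.4) in H3K14cr, with intervals that do not overlap. LCK is the RefSeq neighbour within 6 kb.

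HDAC3 is the catalytic subunit of the NCoR and SMRT corepressor complexes. At its start, chr5:141016423 on the minus strand, it had 2.05 and 3.27 CPM per kb in DPF2, against 3.91 and 4.12 in H3K14cr. The DPF2 libraries lay below both H3K14cr libraries but also apart from each other, and the ratio was 0.699 (0.555 to 0.876), or 0.509 without DPF2 replicate 2. The ratio over the whole 20 kb was 0.898 (0.805 to 1.00), and the fold over the local mean was 0.778 times as large in DPF2 as in H3K14cr, the lowest such value of the 8 genes. RELL2 and FCHSD1 are RefSeq neighbours within 6 kb, so the window holds more than 1 gene. The nearest tile enriched for both antibodies, chr5:140998001-140999000, was centred 17.92 kb downstream of the start, at a mean of 3.70 CPM in DPF2 and 3.97 CPM in H3K14cr.

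ACSS2 and CDYL act on the substrate. ACSS2, the nuclear and cytosolic acyl-CoA synthetase that activates acetate and crotonate, had 2.44 and 2.48 CPM per kb at its start, chr20:33464241, in DPF2, against 3.17 and 3.25 in H3K14cr. The libraries did not overlap, and the ratio was 0.765 (0.595 to 0.979). A further site stood 3 to 4 kb upstream, with 3.21 and 2.18 CPM in DPF2 and 3.77 and 3.40 CPM in H3K14cr. In DPF2 this was the highest tile of the 12, at a mean of 2.69 CPM, while in H3K14cr the tile after the start was higher, at 3.67 CPM. GGT7 is the RefSeq neighbour within 6 kb, and whether the upstream site belongs to it was not tested.

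CDYL, a chromodomain protein and crotonyl-CoA hydratase, had 0.514 and 0.826 CPM per kb at its first start, chr6:4706393, in DPF2, and 0.873 and 0.691 in H3K14cr. The libraries overlapped, and the DPF2 fold over the local mean was 0.870 without replicate 2, against 1.35 with the libraries pooled. The ratio was 0.934 (0.566 to 1.52), the widest interval of the list, and the 2 kb held 30 reads in DPF2 and 43 in H3K14cr. Signal was found further inside. The tile chr6:4776001-4777000, centred 70.11 kb downstream, had 3.85 and 6.01 CPM in DPF2 and 2.94 and 2.94 CPM in H3K14cr. Its folds over background were 5.04 and 8.60 in DPF2 and 3.74 and 4.18 in H3K14cr, and it was enriched for both antibodies. The next tile, chr6:4777001-4778000, had 1.67 and 1.65 CPM in DPF2, against 3.22 and 3.17 CPM in H3K14cr, and was enriched for H3K14cr. DPF2 was thus above H3K14cr in the first tile and below it in the second in every library. These tiles were picked for their signal, so the contrast is a description. Of the 255612 tiles tested below, 12.4% had both DPF2 libraries above both H3K14cr libraries and 29.8% had both below. RefSeq lists the CpG-rich inner start of CDYL 70.27 kb downstream of the first on GRCh38.p14, a distance within that build and not a conversion of positions. Another tile enriched for both antibodies, chr6:4728001-4729000, was centred 22.11 kb downstream, at 2.65 CPM in DPF2 and 2.82 CPM in H3K14cr.

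**Figure D3:**
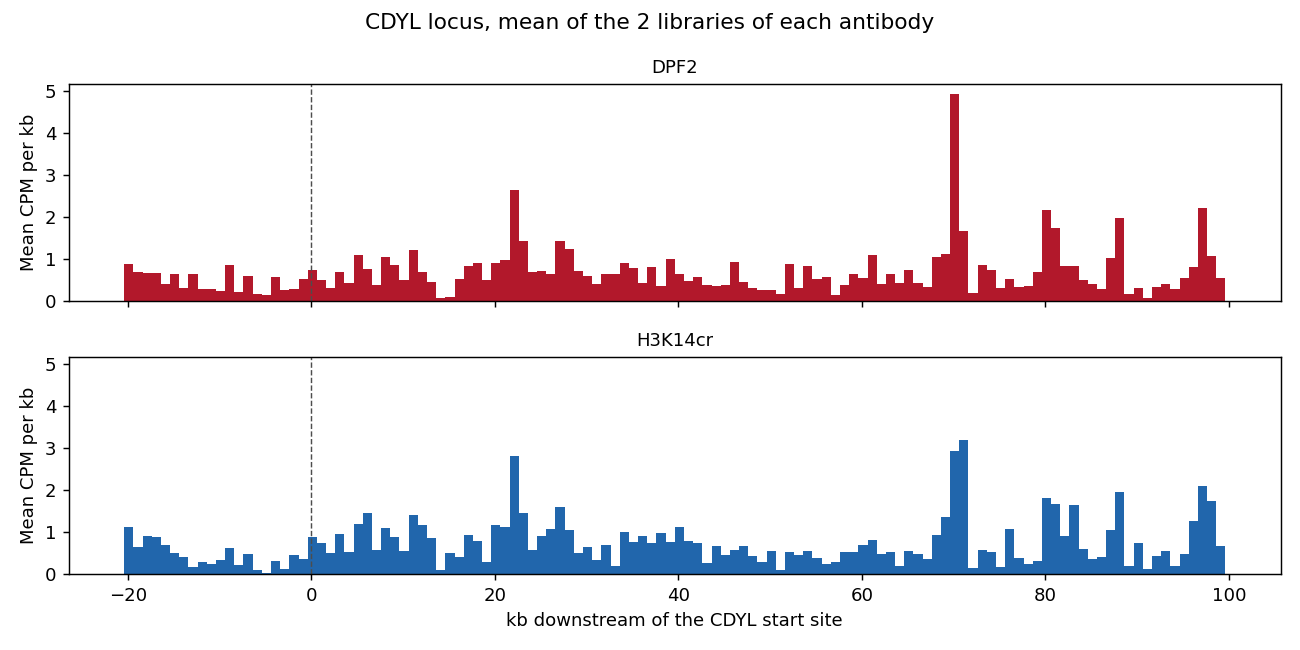
Mean CPM per kb of the 2 libraries of DPF2 (upper panel) and H3K14cr (lower panel) from upstream of the first CDYL start (dashed line at 0) to about 100 kb downstream. The first start has no peak, and the tallest DPF2 bar stands 70.11 kb downstream, beside the tallest H3K14cr bar at 71.11 kb.

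The second comparison set DPF2 against H3K14cr at the same tiles. All 8 ratios over 2 kb were below 1 when scaled by library totals, while 5 of them, at KAT6A, YEATS2, HDAC1, ACSS2 and CDYL, were above 1 when scaled by the median of enriched tiles. By library totals the intervals of 5 genes, EP300, CREBBP, HDAC1, HDAC3 and ACSS2, lay wholly below 1. Among the 12227 tiles enriched for either antibody the median ratio was 0.762, with quartiles of 0.625 and 0.948. This set was chosen by the signal itself, and 6645 of its tiles were enriched for H3K14cr and not for DPF2. The median was 0.659 in those tiles and 0.855 in the 4157 tiles enriched for both antibodies. It was 1.27 in the 1425 tiles enriched for DPF2 and not for H3K14cr. How this choice of tiles bears on the median of 0.762 was not tested. The intervals of all 8 genes hold 0.762, while those of EP300 and CREBBP lie below 0.855. The gene ratios, taken over 2 kb, had a median of 0.778 over the 8 genes. Among the ratios of enriched 1 kb tiles they ran from the 25.8th percentile at EP300 to the 73.6th at CDYL. CDYL itself had no enriched tile within 6 kb of its start. Tiles enriched for neither antibody had a median ratio of 0.908 where they averaged 10 or more reads.

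**Figure D4:**
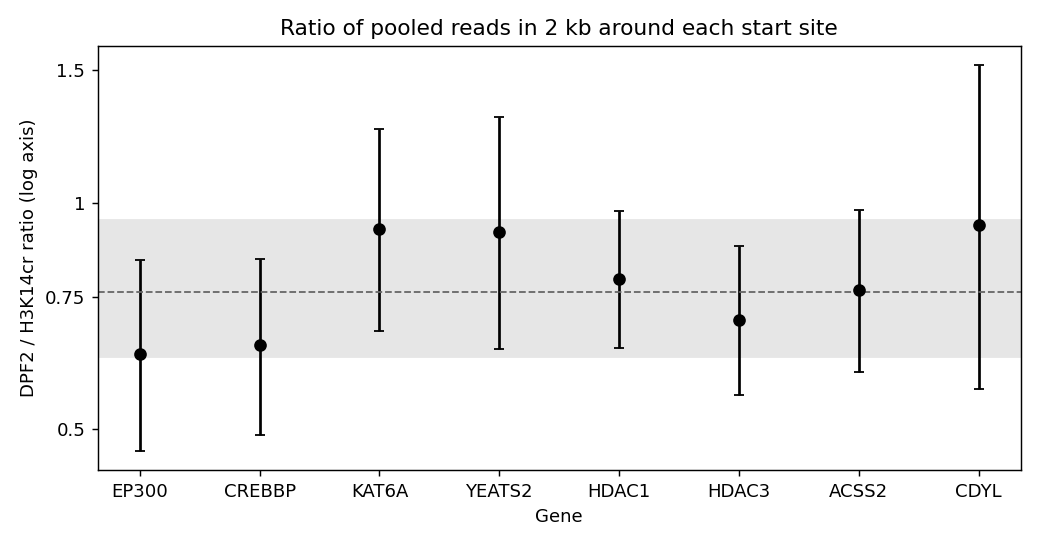
Ratio of DPF2 to H3K14cr, in CPM over 2 kb around each start, on a log axis with 95% binomial intervals. The dashed line is the median of 1 kb tiles enriched for either antibody, 0.762, and the grey band their quartiles, 0.625 to 0.948. All 8 intervals cross the dashed line.

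Differences were tested with limma on log2(CPM + 0.5) in the 255612 tiles that averaged 10 or more reads per library, with Benjamini-Hochberg adjustment at 0.05. Of the 96 tiles 46 entered the test, and these included all 8 start tiles. No tile of the 8 genes was called higher in DPF2 by limma, against 0.202% of all tiles tested, and 2 were called higher in H3K14cr, against 1.19%. By unadjusted limma p under 0.05, 1 of the 46 tiles was higher in DPF2, against 2.5% of all tiles tested, and 13 were higher in H3K14cr, against 9.91%. The quasi-likelihood test of edgeR called 0 tiles higher in DPF2, against 0.226%, and 1 higher in H3K14cr, against 1.34%. Both tiles called by limma belong to CREBBP. The start tile differed by a log2 change of -0.87 (SE 0.235, limma adjusted p = 0.0334), and the tile upstream of it, chr16:3931001-3932000, by -0.84 (SE 0.201, limma adjusted p = 0.0101). The median log2 change of all tiles tested was -0.11. The scale with its added 0.5 CPM understates differences in low tiles.

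CREBBP's calls depended on the setting. With median-of-ratios scaling the start tile stood at -0.74 (limma adjusted p = 0.169) and the upstream tile at -0.70 (limma adjusted p = 0.0930). Neither tile was called without H3K14cr replicate 1, at -0.78 and -0.997, or without H3K14cr replicate 2, at -0.95 and -0.69, while the changes stayed of similar size. Without DPF2 replicate 1 the start tile shrank to -0.48 (limma adjusted p = 0.453), and without DPF2 replicate 2 it was -1.25. That scaling raised the median log2 change of all tiles by 0.11. Under it all tiles were split into 596 higher in DPF2 and 765 higher in H3K14cr, and under TMM into 715 and 1095, against 516 and 3032 in the fit by library total. Among the other start tiles, EP300 had -0.73 (SE 0.226, limma adjusted p = 0.0784) and HDAC3 -0.62 (SE 0.214, limma adjusted p = 0.135). In 2 kb tiles the HDAC3 start was called, at -0.60 (limma adjusted p = 0.0383), and that of EP300 was not, at -0.67 (limma adjusted p = 0.134). The CREBBP start stayed called there, at -0.90 (limma adjusted p = 1.8e-04). In 1 kb tiles without DPF2 replicate 2 the changes were -0.99 for EP300 and -0.92 for HDAC3. Without DPF2 replicate 1 they were smaller, at -0.48 for EP300 and -0.33 for HDAC3. At the remaining 5 start tiles the log2 change lay between -0.20 at ACSS2 and 0.29 at YEATS2, and none passed. In 4 of the 8 start tiles, those of EP300, CREBBP, HDAC3 and CDYL, both DPF2 libraries were below both H3K14cr libraries, as were 29.8% of all tiles tested, and in 0 of the 8 were both above, against 12.4% of all tiles tested. Over the 2 kb centred on the start the set differed, since HDAC1 and ACSS2 had both DPF2 libraries below and CDYL did not.

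The position of signal was then summed over the 8 genes in 250 bp steps. DPF2 was highest from 500 to 250 bp before the start, at 2.61 CPM per kb and gene, was 2.39 in the 250 bp before the start and 2.51 in the 250 bp after it, and stood at 1.78 from 250 to 500 bp after it. H3K14cr was highest in the 250 bp before the start, at 3.13, was 2.92 in the 250 bp after it, and was 3.06 from 250 to 500 bp after it. Beyond 1 kb after the start both were low, at 0.545 in DPF2 and 1.03 in H3K14cr in the next 250 bp. The sums are weighted towards the genes with most reads, which were HDAC3 within 3 kb and HDAC1 closest to the start. In the 1 kb centred on the start HDAC1 had 92 reads in DPF2 and 144 in H3K14cr, against 59 and 123 at HDAC3. No test was made of the shape.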

How the data were processed

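ChIP-seq signal was measured in 4 libraries of K562 cells, grouped by antibody and replicate number from their titles. Bowtie2 (version not stated) and the builds hg19 and mm9 are named in the submitters' processing notes. How duplicates and mapping quality were handled, and how bins were made, is not given in the sources used. The signal deposited by the authors is coverage in 100 bp bins scaled to 10000000 reads. Division by the value of 1 read gave whole reads within 0.005 for all but 1, 3, 4 and 0 values in DPF2 replicates 1 and 2 and H3K14cr replicates 1 and 2.

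Reads were summed in 1 kb tiles. Enrichment was called with a one-sided Poisson test, adjusted over all covered tiles. Tiles were assigned to the 8 genes by start sites on hg19, and the background left out the tile itself. Folds over the 20 kb mean include the site, and CPM is reads per 1000000 reads of a library. DPF2 was set against H3K14cr with limma (trend) on log2(CPM + 0.5) over tiles averaging 10 or more reads per library, and with edgeR's quasi-likelihood test on recovered reads as an alternative. That alternative had been listed in advance for the case that whole reads could be recovered. Folds, ratios and shares carry exact binomial intervals at 95%. All 8 genes were named by rule. The genes and lists were chosen with earlier results of these data known. Other genes of the pathway were not analysed here, since no annotation of hg19 was used. Promoter sequences and neighbouring genes came from RefSeq, GRCh38.p14, and the strand of KAT6A from general knowledge. Alternatives covered tile size and grid, background, fold, window, scaling, pseudocount, filter, test, replicate block and each library left out. The tests ran in R 4.3.3 with edgeR 4.0.16 and limma 3.58.1. The other steps ran in Python 3.11.15 with scipy 1.17.1, pandas 2.3.3 and numpy 2.4.6, and figures were drawn with matplotlib 3.10.9.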

Additional observations from a re-analysis of the deposited data

How the results depend on the processing

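Counts of genes moved with the call rule, and the cause was not tested. Genes with an enriched tile within 6 kb, 3 for DPF2, 4 for H3K14cr and 2 for both, became 5, 7 and 5 with flanks of 6 to 16 kb as background, 6, 7 and 6 with libraries summed, and 0 throughout at a fold of at least 5. All windows then called were 3.53%, 5.41% and 2.96% with flanks, 5.09%, 5.63% and 3.66% with libraries summed, and 0.542%, 1.01% and 0.339% at that fold. At a fold of at least 2, DPF2 had 5 genes (2.57% of windows) and both antibodies 4 (2.22%), and 2 kb tiles gave 1 for both. With a library left out, DPF2 ranged from 3 to 5 (2.18% to 4.57% of windows) and H3K14cr from 4 to 7 (3.73% to 5.63%). For start tiles the fold of at least 5 gave 0, against 0.0502%, 0.096% and 0.0288% of all tiles for DPF2, H3K14cr and both. Summed libraries gave 5 for DPF2, 7 for H3K14cr and 5 for both, against 0.544%, 0.653% and 0.368% of all tiles. Tiles of 500 bp gave 1, 5 and 1, and 2 kb tiles gave 1 for both. Shares of all tiles at those sizes are not given here. Start tiles enriched for H3K14cr numbered 6 with the flanks (0.746% of all tiles) and 6 at a fold of at least 2 (0.6%). Leaving out single libraries gave 3 to 6 such start tiles, against 0.416% to 0.651% of all tiles.

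Tiles called by limma were 516 higher in DPF2 and 3032 higher in H3K14cr. As folds over the local background they were 242 and 371, and the higher H3K14cr count was 765 with median-of-ratios factors and 1095 with TMM. With a library left out the counts ranged from 155 to 736 and from 48 to 5171, lowest without H3K14cr replicate 1 and highest without DPF2 replicate 2. The 2 tiles of the 8 genes called higher in H3K14cr, against 3032 of all 255612 tiles tested, became 0 under both scalings and as local folds. They became 1 with a mean of at least 5 reads, against 2125 of 932071 tiles tested, and 1 with edgeR, against 1.34% of tiles tested. The count also moved with a library left out. Replicate numbers share only a label, since same-numbered libraries correlated at 0.0015 in their deviations over 255612 tiles. With the replicate block limma called 589 and 3630 tiles, and 0 and 2 in the 8 genes.

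The uncalled HDAC1 start tile, -0.04, turned to 0.11 with median-of-ratios, 0.095 with TMM, 0.10 as a local fold and 0.0096 without H3K14cr replicate 1, and ranged from -0.22 to 0.15 with a library left out. The uncalled KAT6A tile, 0.01, turned to -0.23 in 2 kb tiles, -0.0025 without DPF2 replicate 1 and -0.12 without H3K14cr replicate 2. The median fold over the 8 genes, 2.63 in DPF2 and 2.75 in H3K14cr, was 3.31 and 3.19 over 1 kb, 1.95 and 2.36 over 4 kb, and 3.81 and 4.32 over the flanks. The median ratio was 1.02 when scaled by enriched tiles. Of the values of single genes, 48 of 80 folds and 66 of 72 ratios stayed within their counting interval. Of the log2 changes, 95 of 120 kept both their sign and their call.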

Other observations

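The 12 tiles around each start were also compared between genes, as a description over 12 neighbouring tiles that share their libraries. The closest DPF2 profiles were CREBBP with HDAC3 and YEATS2 with HDAC3, each at a Spearman rho of 0.718. The closest H3K14cr profiles were HDAC3 and ACSS2, at 0.734. Within a gene, the DPF2 and H3K14cr profiles had a rho of 0.923 at HDAC3, the highest, and 0.594 at EP300, the lowest.

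Sites enriched for both antibodies also lay outside the 6 kb windows. The nearest to EP300 was chr22:41418001-41419000, centred 70.11 kb upstream, at a mean of 2.92 CPM in DPF2 and 3.97 CPM in H3K14cr. That of YEATS2 was chr3:183354001-183355000, 61.1 kb upstream, at 2.25 CPM in DPF2 and 2.38 CPM in H3K14cr. That of ACSS2 was chr20:33413001-33414000, 50.74 kb upstream, at 3.15 CPM in DPF2 and 4.38 CPM in H3K14cr. For CREBBP it was chr16:3767001-3768000, 162.62 kb downstream, at 3.45 CPM in DPF2 and 5.19 CPM in H3K14cr. Which genes these tiles lie in was not analysed here.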
